A study of Mus musculus with 9 samples.

Results

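Mitochondrial genome transcripts were the rows of the deposited count table whose symbol starts with mt-. There were 37 of them among 52264 rows, namely 13 mRNA, 2 rRNA and 22 tRNA rows, which is every gene of the mouse mitochondrial genome. RNA was sequenced from mouse embryonic stem cells in 9 libraries. The cells were labelled beta-catenin-/-, a genotype that the control cells carried too. The cells were grown on feeder cells, and the expansion medium held 3 µM CHIR-99021, 1 µM PD03 and 40 ng/ml LIF. They spent a night in N2B27 medium and were then left as Control or given BRD0705 or CHIR for 30 min, with 3 libraries in each group. CHIR-99021 inhibits both forms of the kinase GSK3, and BRD0705 is an inhibitor selective for GSK3α. The labels give no dose for these 30 min, no age, and do not say whether the libraries came from separate cultures or from 1 clone. The p-values below therefore measure only the spread between these libraries, which may be technical.

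Mitochondrial DNA is transcribed from both strands into long precursors, from which tRNAs are cut out and thereby release the mRNAs and rRNAs that lie between them. The mRNAs encode core subunits of respiratory complexes I, III, IV and V, and they receive short poly(A) tails that complete the stop codon of some of them. The rRNAs build the mitochondrial ribosome and are far more abundant in cells than the mRNAs.

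Libraries held 17359422 to 20773337 counts. All 10 embryonic stem cell markers examined passed the low-count filter, and their summed level was 5006 to 5401 CPM (counts per 1000000 counts, with TMM-scaled library sizes). All 10 fibroblast markers, which the feeder cells would contribute, also passed it, with a summed level of 2288 to 2763 CPM in Control, 2897 to 2980 in BRD0705 and 2596 to 3082 in CHIR. The part of feeder cells in the mitochondrial counts was not tested. Ctnnb1, the gene of beta-catenin, held 5657 to 7457 counts in every library. The labels do not say which part of it was deleted, so this row did not check the genotype.

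All members lie on the mitochondrial chromosome, and their positions are the same in the GRCm38.p6 and GRCm39 assemblies. From the rRNA end, mt-Rnr1 takes bases 70 to 1024 and mt-Rnr2 bases 1094 to 2675. The complex I genes mt-Nd1 (2751 to 3707) and mt-Nd2 (3914 to 4951) follow, then mt-Co1 (5328 to 6872) and mt-Co2 (7013 to 7696) of complex IV. Next come mt-Atp8 (7766 to 7969) and mt-Atp6 (7927 to 8607) of complex V, which overlap, and mt-Co3 (8607 to 9390). The remaining genes are mt-Nd3 (9459 to 9806), mt-Nd4l (9877 to 10173), mt-Nd4 (10167 to 11544), mt-Nd5 (11742 to 13565), mt-Nd6 (13552 to 14070) and mt-Cytb (14145 to 15288). Of the mRNAs, mt-Nd6 alone is read from the opposite strand, as are 8 of the 22 tRNAs. None of these genes has an intron.

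The 3′ ends of the annotated mRNAs bear on the question of poly(A). In mt-Co3, mt-Cytb and mt-Nd4 the annotated transcript stops after the first base of its last codon, which a poly(A) tail completes in the cell. The last 15 annotated bases are shown for these 3 and for mt-Co1 and mt-Nd1, with the final complete or partial codon in capitals.
mt-Co3: attgatgaggatctT
mt-Cytb: taaaattatatccaT
mt-Nd4: caggcctgacaataT
mt-Co1: gtaaaagtaaaaTAA
mt-Nd1: ccaccatacataTAG

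A stretch of nuclear chromosome 1 repeats part of the mitochondrial genome and shared counts with the members. In GRCm39, 13 mitochondrial transcripts matched chr1:24650616-24655269, a span of 4654 bases, mostly on the minus strand. The match was 100% over the whole length for mt-Co2, mt-Co3, mt-Atp6, mt-Atp8 and mt-Nd4l and for the first 876 of the 1378 bases of mt-Nd4. For mt-Nd3 it held 1 mismatch in 348 bases. The mitochondrial transcript and the annotated nuclear row Gm28438 differ by T3C (positions from the first base of mt-Nd3, the base of mt-Nd3 first). Their first 23 bases show the single base, in capitals, that tells a read of one from a read of the other.
mt-Nd3: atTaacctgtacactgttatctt
Gm28438: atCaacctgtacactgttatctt
The pair mt-Nd4l and Gm10222 shows the usual case, with no differing base. The mitochondrial row has only the 3 extra bases of the stop codon, in capitals.
mt-Nd4l: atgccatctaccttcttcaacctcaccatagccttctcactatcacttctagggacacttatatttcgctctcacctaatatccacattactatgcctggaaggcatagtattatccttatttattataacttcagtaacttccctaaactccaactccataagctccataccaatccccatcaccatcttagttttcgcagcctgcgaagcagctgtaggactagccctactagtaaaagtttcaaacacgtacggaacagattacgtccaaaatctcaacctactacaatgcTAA
Gm10222: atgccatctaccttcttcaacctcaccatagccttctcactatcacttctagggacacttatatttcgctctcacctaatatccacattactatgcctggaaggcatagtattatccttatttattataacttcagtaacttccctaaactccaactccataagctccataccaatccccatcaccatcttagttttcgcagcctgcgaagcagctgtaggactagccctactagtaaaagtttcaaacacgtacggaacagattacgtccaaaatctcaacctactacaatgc

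Most counts of 5 mRNA sequences sat in the nuclear row, as the plot of the split between paired rows shows. The row mt-Co2, a catalytic subunit of complex IV, held 0.472 to 1.78% of the counts it shared with Gm28661. For mt-Atp6, the proton channel subunit of complex V, the mitochondrial row held 3.69 to 8.12% of the counts shared with Gm10925, which RefSeq also lists under the name mt-Atp6. No transcript of Gm10925 was aligned here, so its match to mt-Atp6 was not checked by sequence. All values of mt-Atp6 with the copy added rest on this pairing. Those per base or per kilobase use the 681 bases of mt-Atp6, since no length of Gm10925 was used. For mt-Co3 the mitochondrial row held 0 to 5.78%, for mt-Nd3 0 to 4.23% and for mt-Nd4l 0 to 8.75%. The pairs mt-Co1 with Gm29216 and mt-Nd4 with Gm28439, whose nuclear rows match only part of the transcript, were split the other way, with 98.6 to 100% and 100% of counts in the mitochondrial row. Identical letters cannot say which genome a read came from, and transcription of the chromosome 1 copy was not tested.

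**Figure D1:**
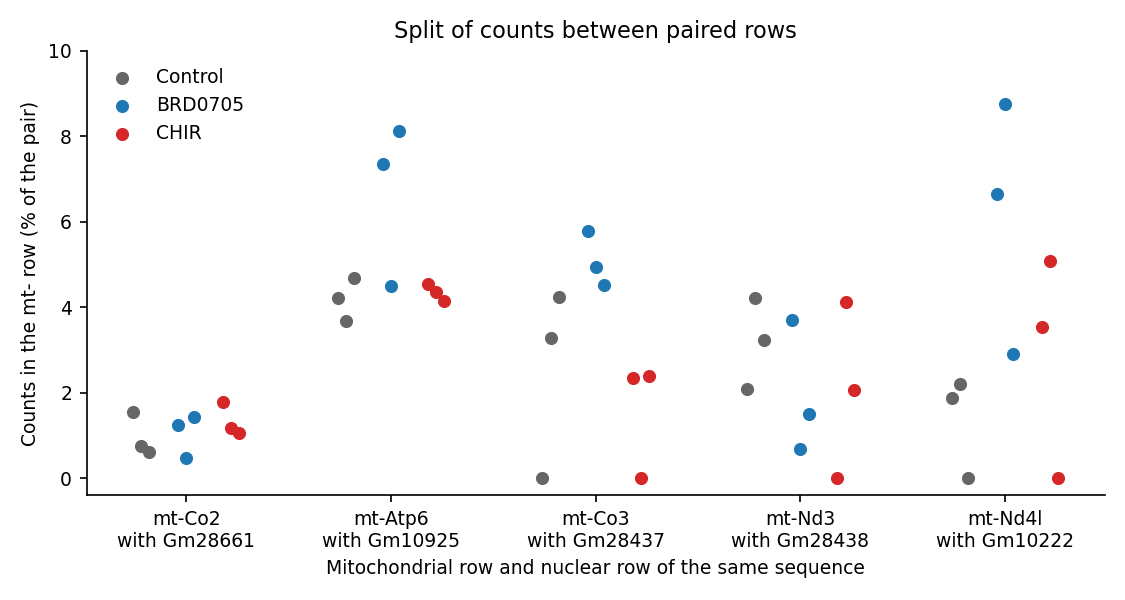
Share of the counts of each pair of rows that was assigned to the mitochondrial row, in percent of the pair (vertical axis), for the 5 mRNAs with most counts in the nuclear row; each point is 1 library. All points lie at or below 8.75%, and mt-Co3, mt-Nd3 and mt-Nd4l reach 0 in single libraries.

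The division varied between libraries far more than the sum. Counts in the mt-Co3 row were 0, 1929 and 2405 in Control, 2916, 2340 and 2009 in BRD0705 and 1477, 1 and 1430 in CHIR. With Gm28437 added, the same libraries held 54231, 58847 and 56697, then 50468, 47443 and 44489, then 63065, 56105 and 59778. The row alone thus had an empty library in Control and a nearly empty one in CHIR, where the sum had none. Counts in the mt-Nd3 row were 84, 243 and 195, then 141, 26 and 59, then 0, 211 and 108, in the same order of groups. With Gm28438 added they were 4005, 5749 and 6050, then 3802, 3790 and 3957, then 6482, 5114 and 5206. For these 5 mRNAs the values below are given with the nuclear row added, an addition chosen after the data were seen, and the fold changes of the deposited rows stand beside them.

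The tRNA rows were empty. All 22 held 0 counts in all 9 libraries, which allows up to 3 counts, or 0.144 to 0.173 CPM, in a library. These limits cover counting error only. The shortest, the serine tRNA mt-Ts2, and the longest, the leucine tRNA mt-Tl1, are shown whole.
mt-Ts2: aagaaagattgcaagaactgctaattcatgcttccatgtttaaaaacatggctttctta
mt-Tl1: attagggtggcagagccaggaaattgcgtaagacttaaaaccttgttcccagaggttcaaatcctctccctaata
They are 59 and 75 bases long. Outside the mitochondrial genome, 0 of 745 rows with an annotated transcript of at most 75 bases held a count, and 0 of 2275 rows of at most 120 bases. The shortest row with any count was C920009B18Rik, of 123 bases, with 38 counts over all libraries. The share of rows with a count then rose to 1.04% at 121 to 200 bases, 7.49% at 201 to 300, 16.4% at 301 to 500 and 64.4% above 500. Every other row of such a length with an annotated transcript was thus empty too. The parts of length and of RNA class were not tested. An empty tRNA row carries no reading of tRNA level or of library type.

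**Figure D2:**
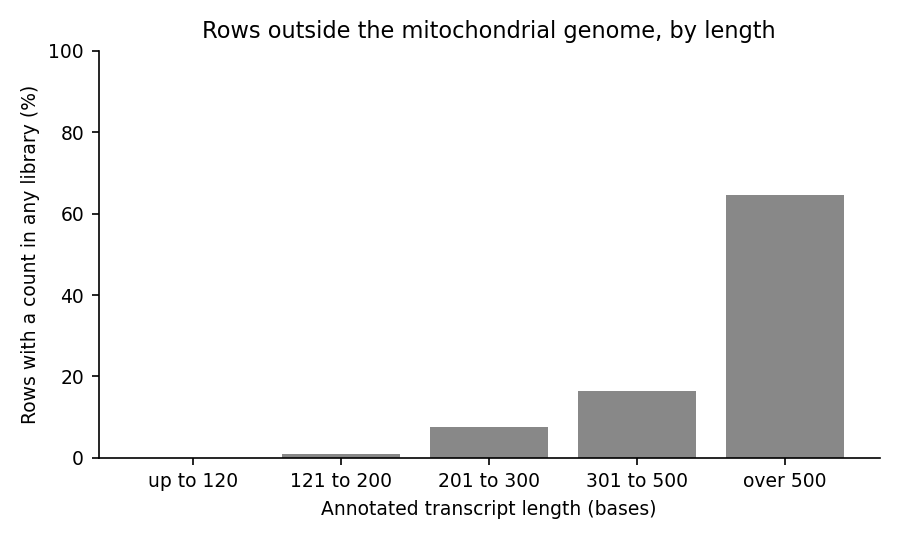
Percentage of rows outside the mitochondrial genome with at least 1 count in any of the 9 libraries (bars), by annotated transcript length in bases. The bar for rows up to 120 bases, the class of all mitochondrial tRNAs, is at 0 and the bar above 500 bases is at 64.4%.

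The 2 rRNA rows held few counts. mt-Rnr1, the 12S rRNA of the small ribosomal subunit, had 324 ± 23.5 CPM per kilobase (SD, n = 9) and mt-Rnr2, the 16S rRNA of the large subunit, 264 ± 31.9. Together they made up 3.83 to 4.94% of the counts of all mt- rows. Per base of transcript, the rRNAs had 0.123 ± 0.0102 times the level of the mRNAs with nuclear copies added (SD, n = 9), with 0.112 to 0.140 over the libraries. The ratio of mt-Rnr2 to mt-Rnr1 per base was 0.753 to 0.937, below 1 in all 9 libraries. Both rRNAs thus stood below every mRNA except mt-Nd4l per base.

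The labels describe the libraries both as polyA RNA and as made from total RNA with a RiboZero step, which removes rRNA. Both can lower rRNA rows. Whether the RiboZero step covers mitochondrial as well as cytosolic rRNA was not checked, so these rows were not used to tell the 2 labels apart. Nuclear RNAs without a poly(A) tail gave mixed values. The replication-dependent histone genes, whose mRNAs mostly lack a tail, had counts in 61 of 65 rows and took 0.151 to 0.176% of all counts. The RNA components Rmrp (0 to 6 counts), Rpph1 (18 to 28) and Terc (0 to 1) of RNase MRP, RNase P and telomerase were near 0. Their annotated transcripts have 281, 319 and 423 bases. Any count was held by 7.49% of rows at 201 to 300 bases and 16.4% at 301 to 500. Small nucleolar RNA rows had counts in 0 of 75 Snord and 3 of 37 Snora rows, the latter with at most 4 counts in a library. Short rows in general were mostly empty, as given above, and the part of row length in these values was not tested. Malat1, a long nuclear RNA, had 1412 to 1916 counts, or 10.4 CPM per kilobase. The mRNAs Actb, Gapdh and Eef1a1 had 970, 3229 and 4019 CPM per kilobase. No row carried the symbol Rn7sk or, for the cytosolic 18S and 28S rRNAs, Rn18s, Rn28s1 or Rn45s. The 13 rows of 5S rRNA held 0 counts. Which of the 2 library types was used was not settled by these values.

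The mRNAs spanned a wide range of levels. Per kilobase and with nuclear copies added, mt-Atp6 had 6088 ± 744 CPM (SD, n = 9) and mt-Co2 5427 ± 772, and their ranges over the libraries overlapped. mt-Co3, mt-Nd1 and mt-Co1 followed with 3590 ± 435, 3536 ± 498 and 3287 ± 472, which also overlapped. mt-Nd1 encodes a membrane subunit of complex I and mt-Co1 the subunit of complex IV that reduces oxygen. The next level held mt-Nd2 (1694 ± 263) and mt-Cytb (1640 ± 240), the latter the cytochrome b of complex III. mt-Nd6, mt-Atp8 and mt-Nd4 had 1293 ± 234, 1162 ± 208 and 1068 ± 167, with overlapping ranges. The lowest were mt-Nd3 (725 ± 146), mt-Nd5 (651 ± 96.3) and mt-Nd4l (177 ± 35.1). The range of mt-Nd4l, 132 to 237 CPM per kilobase, overlapped no other mRNA. Neighbours in this order overlapped except at 3 steps: mt-Co2 to mt-Co3, which missed narrowly (lowest 4169, highest 4168), mt-Co1 to mt-Nd2, and mt-Nd5 to mt-Nd4l. By mean CPM among all rows, mt-Co1 ranked 8, mt-Atp6 11, mt-Co2 17 and mt-Nd1 20 with nuclear copies added. As deposited, the rows mt-Atp6 and mt-Co2 ranked 930 and 4544.

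**Figure D3:**
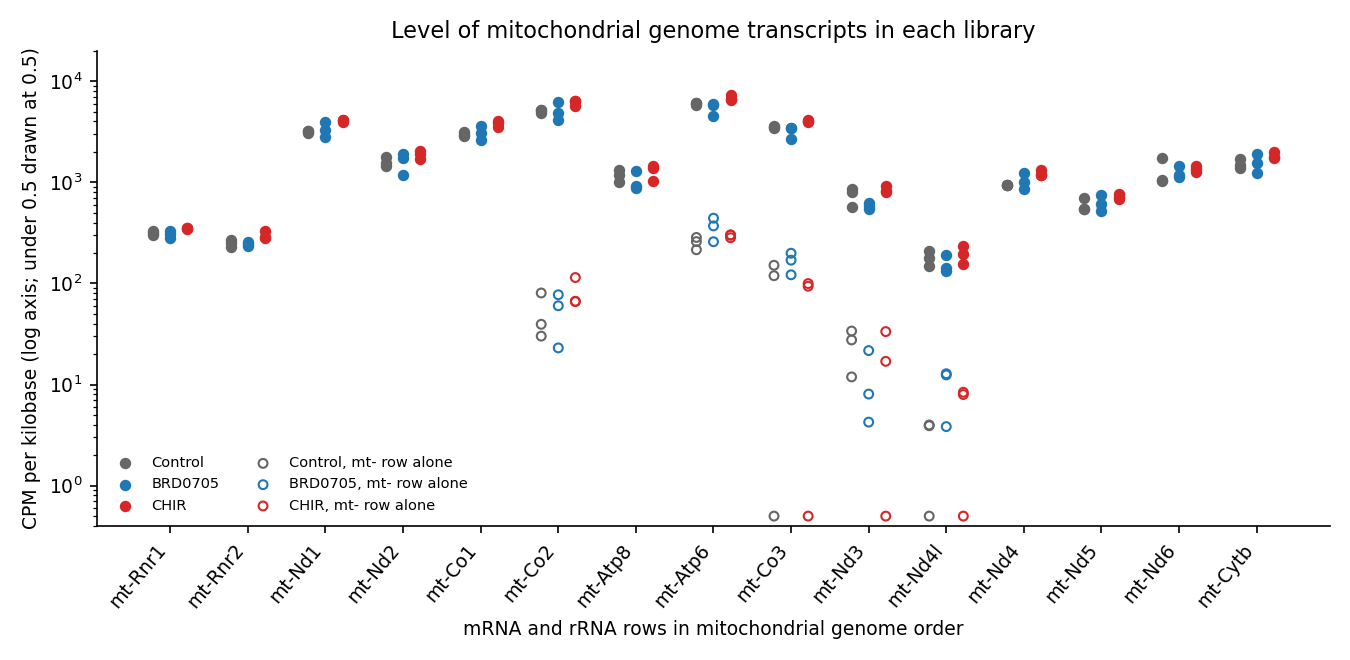
CPM per kilobase (vertical log axis) of the 13 mRNAs and 2 rRNAs in mitochondrial genome order; filled points are the 9 libraries with nuclear copies added and open points the mt- row alone for the 5 mRNAs with most counts in the nuclear row. Values under 0.5, 0 included, are drawn at 0.5; the open points lie far below the filled ones of the same gene.

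Genes that share an mRNA did not have equal levels per base. mt-Atp8 and mt-Atp6 are read from 1 overlapping mRNA. With nuclear copies added, mt-Atp8 had 0.151 to 0.218 times the level of mt-Atp6 per base, below 1 in all 9 libraries. No nuclear row was added to mt-Atp8, although the chromosome 1 stretch matches it in full. The counts of Gm10925, whose length was not used, all went to mt-Atp6, so this ratio rests on that pairing. Between the deposited rows the order turned, and mt-Atp8 had 2.50 to 4.77 times the level of mt-Atp6. mt-Nd4l and mt-Nd4 likewise share an mRNA, and mt-Nd4l had 0.132 to 0.226 times the level of mt-Nd4 with copies added and 0 to 0.0124 times between the deposited rows. With copies added, in both pairs the shorter reading frame, 204 bases in mt-Atp8 and 297 in mt-Nd4l, was the lower one. Other short rows also held fewer counts, as given above, and the part of row length in these ratios was not tested.

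The opposite-strand mRNA mt-Nd6, a membrane subunit of complex I, stood above its overlapping neighbour. Per base it had 1.63 to 2.51 times the level of mt-Nd5, the proton-pumping subunit whose end it overlaps. Its level was 912, 543 and 536 CPM in Control, 753, 608 and 583 in BRD0705 and 655, 695 and 752 in CHIR. Control library 1 was the highest of all 9, and the groups overlapped. The sequence of mt-Nd6 has 28.1% G and 5.97% C, the reverse of the other mRNAs. Whether the counting used strand is not given in the sources used here, so reads of precursor RNA antisense to mt-Nd6 cannot be told apart from its own.

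Mitochondrial rows took a larger share of all counts in CHIR than in Control. The share was 1.59, 1.53 and 1.495% in Control, 1.87, 1.60 and 1.35% in BRD0705 and 1.91, 1.79 and 1.89% in CHIR. Group means were 1.54 ± 0.0458, 1.61 ± 0.260 and 1.86 ± 0.0633% (SD, n = 3). Every CHIR library was above every Control library, while BRD0705 library 1 lay among the CHIR values and BRD0705 library 3 below all others. With nuclear copies added the share was 2.63, 2.58 and 2.52% in Control, 2.94, 2.60 and 2.15% in BRD0705 and 3.11, 2.93 and 3.11% in CHIR. CHIR again lay above Control without overlap, and BRD0705 library 1 just above CHIR library 2. The spread among BRD0705 libraries was shared by most members. With nuclear copies added, library 1 was the highest and library 3 the lowest BRD0705 library for 13 of the 15 mRNAs and rRNAs, and library 3 was the lowest of all 9 for 12.

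**Figure D4:**
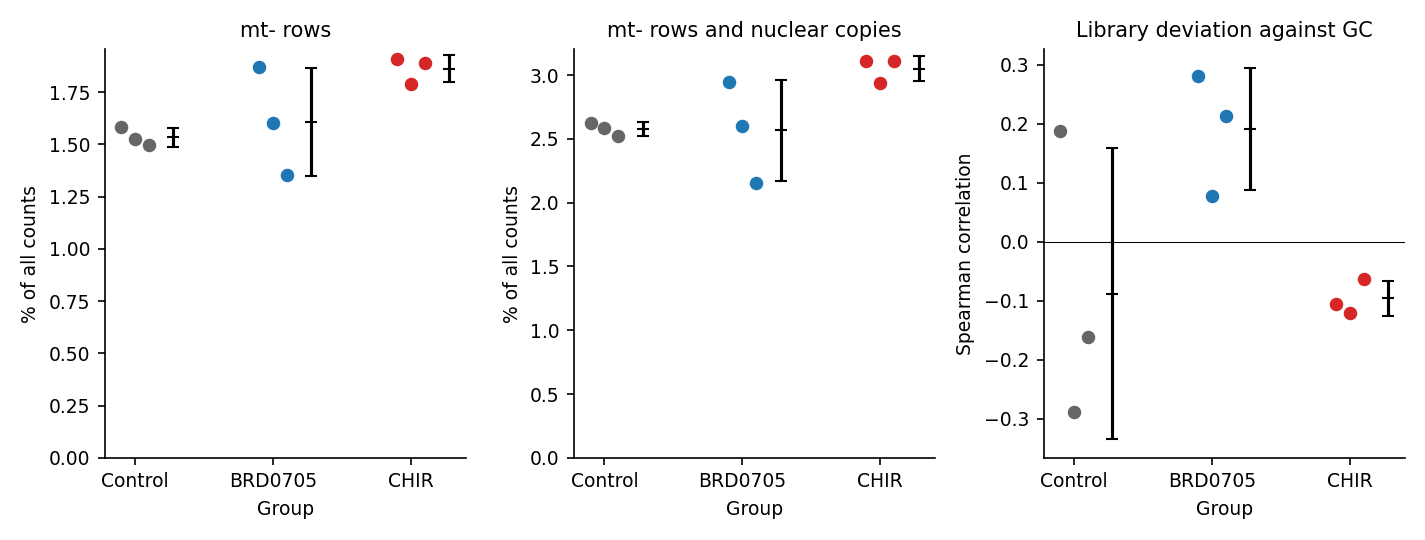
Percentage of all counts on mt- rows (left) and on mt- rows with their nuclear copies (middle), and Spearman correlation of GC content with the deviation of each gene from its mean over the 9 libraries (right); points are libraries, bars the mean ± SD of 3. CHIR lies above Control in both shares, the BRD0705 libraries spread widely, and all 3 BRD0705 correlations are positive where all 3 CHIR ones are negative.

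The BRD0705 and the CHIR libraries lay apart in base composition, and the Control libraries spanned both. Across genes, the deviation of a library from the mean of all 9 correlated with GC content at Spearman rho 0.187, -0.289 and -0.162 in Control, 0.282, 0.0783 and 0.214 in BRD0705, and -0.105, -0.120 and -0.0622 in CHIR. These are descriptions across genes, which are not independent. The mitochondrial mRNAs have 31.9 to 41.1% GC. The counts called and medians below are therefore also given with GC content and length fitted as an offset per library.

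BRD0705 against Control asked what 30 min of the GSK3α-selective inhibitor did to these RNAs. No member passed in edgeR's quasi-likelihood test at a Benjamini-Hochberg adjusted p under 0.05, with 15 of the 37 members tested and 2 at an unadjusted p under that level. DESeq2 also called 0. Of all 15366 rows tested, 1.22% passed in either direction. The members' median log2 fold change was 0.06, against -0.00 for all rows tested. The members at an unadjusted p under the threshold were mt-Atp6 (0.50 ± 0.13, SE; edgeR adjusted p = 0.0615) and mt-Nd4l (1.85 ± 0.70; adjusted p = 0.200), both rows with most counts in a nuclear copy. With the copies added these differences were -0.15 ± 0.08 and -0.20 ± 0.14. The largest difference was then that of mt-Nd3, a small membrane subunit of complex I, at -0.35 ± 0.10 (edgeR adjusted p = 0.0982). Its level with the copy added was 197, 279 and 298 CPM in Control and 203, 216 and 188 in BRD0705. Control library 1 lay within the BRD0705 values, and the other 2 Control libraries lay above them. With the GC and length offset the members' median was 0.17, against -0.00 for all rows, mt-Atp6 passed as the only deposited row, and no member passed once copies were added too. With copies added and no offset, 0 members passed, where 1.27% of rows tested did.

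CHIR against Control asked what 30 min of the inhibitor of both GSK3 forms did. All 8 mRNAs with most counts in their own row and both rRNAs had positive values. Of the 15 members tested, 4 were higher in CHIR and 0 lower by edgeR, where 2.52% of all rows tested were higher and 6.30% changed in either direction. The 4 were the complex I mRNAs mt-Nd1 and mt-Nd4, the complex IV mRNA mt-Co1 and the 16S rRNA mt-Rnr2. The members' median was 0.26, against -0.01 for all rows tested, and with the GC and length offset 0.28 against 0.04. Over all rows, 387 were higher and 581 lower, and with the offset 1008 and 530. Values of 6 members did not overlap between the groups, all of them higher in CHIR, where 10.9% of all rows tested were. With nuclear copies added, all 15 members had a positive value, mt-Co1, mt-Nd1, mt-Nd4 and mt-Rnr2 passed again, and 2.54% of the 15361 rows then tested were higher. Members share precursor RNAs, and most shared the spread among BRD0705 libraries. The 15 members are thus not independent of each other, here or in the other comparisons.

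mt-Nd1 had 3100, 2939 and 3098 CPM in Control and 3997, 3774 and 3927 in CHIR. All CHIR libraries lay above all Control libraries, at a log2 fold change of 0.36 ± 0.08 (SE, n = 3; edgeR adjusted p = 0.0113). mt-Nd4, the proton-pumping subunit of complex I read from the same mRNA as mt-Nd4l, had 1285, 1293 and 1303 CPM in Control and 1827, 1639 and 1626 in CHIR. Control varied least for this gene, and the groups did not overlap (0.39 ± 0.09; edgeR adjusted p = 0.0138). mt-Co1 had 4490, 4818 and 4429 CPM in Control and 5987, 5391 and 6179 in CHIR, again without overlap (0.35 ± 0.08; edgeR adjusted p = 0.0150). The rRNA mt-Rnr2 had 361, 393 and 424 CPM in Control and 524, 442 and 452 in CHIR. Its groups did not overlap, although CHIR library 2 and Control library 3 were close (0.27 ± 0.07; edgeR adjusted p = 0.0249).

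The other members did not pass against Control. mt-Rnr1 had 290, 302 and 313 CPM in Control and 337, 337 and 327 in CHIR, without overlap, at 0.15 ± 0.06 (edgeR adjusted p = 0.135). mt-Cytb had 1957, 1698 and 1597 CPM in Control and 1973, 2029 and 2270 in CHIR (0.26 ± 0.11; adjusted p = 0.172). Both sets lie apart by a small margin. For mt-Nd2 the value was 0.25 ± 0.12, for mt-Nd5 0.27 ± 0.11, for mt-Atp8 0.13 ± 0.13 and for mt-Nd6 0.08 ± 0.14, and the groups of these 4 overlapped. With nuclear copies added, mt-Co2 was at 0.28 ± 0.09 (edgeR adjusted p = 0.0808), mt-Atp6 at 0.18 ± 0.08, mt-Co3 at 0.19 ± 0.07, mt-Nd3 at 0.20 ± 0.10 and mt-Nd4l at 0.14 ± 0.14. As deposited, the rows mt-Co3 and mt-Nd3 had the opposite sign, at -0.48 ± 0.81 and -0.57 ± 0.61, with standard errors several times wider.

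The 4 calls against Control passed again under the GC and length offset, with DESeq2, with limma on log2 values and with each other scaling tried. They were sensitive to single libraries. Without Control library 2, mt-Nd1, mt-Nd4 and mt-Rnr2 had adjusted p of 0.0565, 0.0515 and 0.0682 in edgeR, and only mt-Co1 passed. Without CHIR library 1, mt-Nd4 was at 0.0561 and mt-Rnr2 at 0.110. Without Control library 3, mt-Co1 was at 0.0630, and without Control library 1, mt-Rnr2 was at 0.0946. The log2 fold changes in those fits were 0.20 to 0.40.

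**Figure D5:**
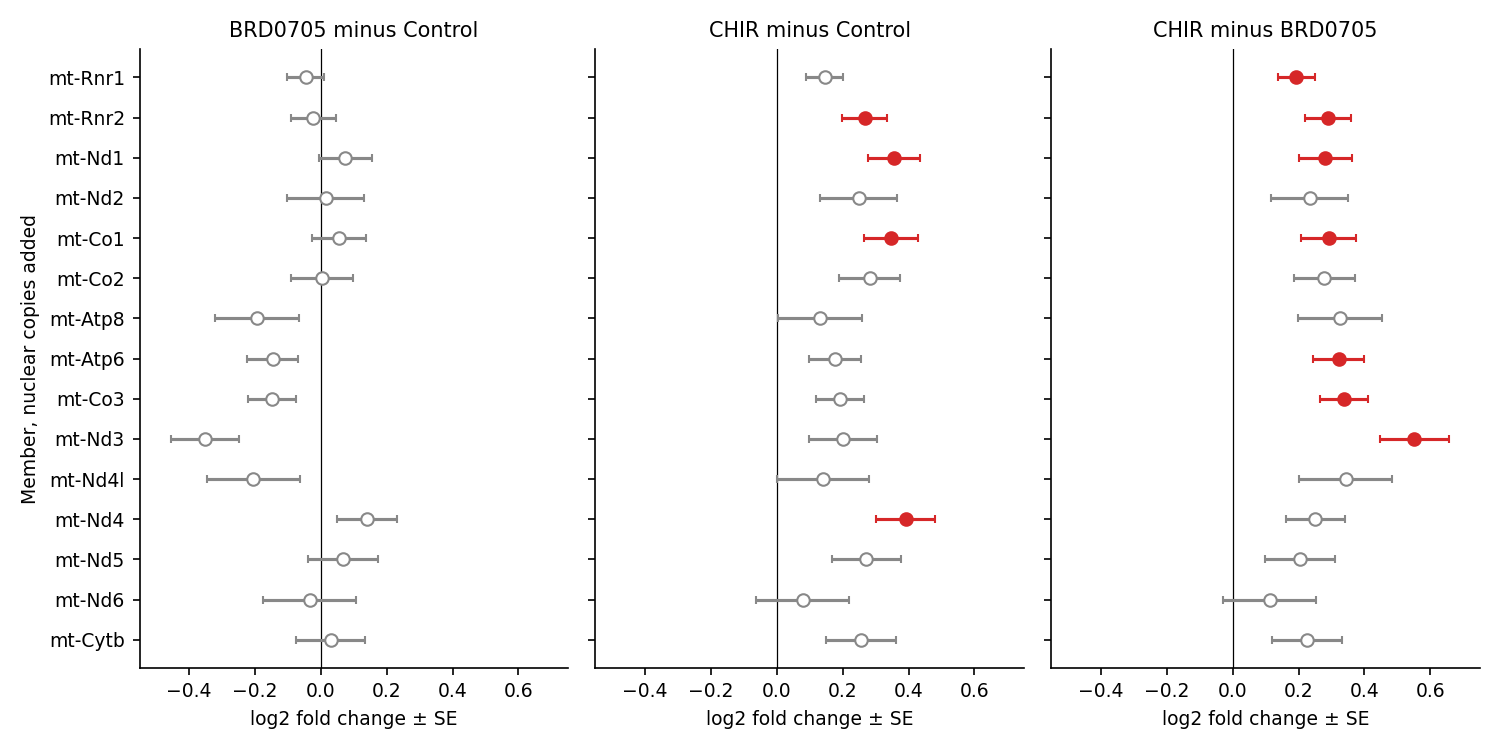
Log2 fold change ± SE (horizontal axis) of the 13 mRNAs and 2 rRNAs with nuclear copies added, in genome order, for the 3 comparisons; filled red points passed an edgeR adjusted p under 0.05 over all rows tested. All 15 points lie right of 0 in both comparisons with CHIR, and none passed for BRD0705 against Control.

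CHIR against BRD0705 compared the 2 inhibitors directly; it shares the CHIR libraries with the comparison above, so the 2 are not independent. By edgeR, 4 of the 15 members tested were higher in CHIR and 0 lower, where 2.97% of all rows tested were higher and 7.77% changed in either direction. The 4 were mt-Co1 (0.29 ± 0.08; adjusted p = 0.0377), mt-Nd1 (0.28 ± 0.08; 0.0368), mt-Rnr1 (0.19 ± 0.06; 0.0414) and mt-Rnr2 (0.29 ± 0.07; 0.0141). The members' median was 0.23, against -0.00 for all rows tested, and with the offset 0.11 against 0.04. Over all rows, 456 were higher and 738 lower, and with the offset 970 and 489. mt-Nd1 had 3744, 3172 and 2706 CPM in BRD0705, all below the CHIR libraries given above. mt-Co1 had 5531, 4771 and 4048 CPM, and BRD0705 library 1 lay within the CHIR range. The rRNAs had 312, 293 and 271 CPM (mt-Rnr1) and 406, 384 and 371 CPM (mt-Rnr2) in BRD0705, all below CHIR. In all, 3 members lay higher in CHIR without overlap, where 12.9% of all rows tested did. The row mt-Co3 lay lower without overlap, where 13.7% did.

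Adding the nuclear copies raised the number higher in CHIR to 7, where 3.04% of rows tested were. The 3 added were mt-Nd3, mt-Co3 and mt-Atp6. mt-Nd3 had 323, 282 and 285 CPM in CHIR, above the 203, 216 and 188 of BRD0705 (0.55 ± 0.10; edgeR adjusted p = 0.00302), the largest difference among the members. mt-Co3, a structural subunit of complex IV, had 2700, 2699 and 2113 CPM in BRD0705 and 3143, 3089 and 3268 in CHIR (0.34 ± 0.07; adjusted p = 0.00731). mt-Atp6 had 4097, 3916 and 3106 CPM in BRD0705 and 4496, 4431 and 4973 in CHIR (0.32 ± 0.08; adjusted p = 0.0151). In each of these 3 all CHIR libraries were above all BRD0705 libraries. As deposited, the rows mt-Co3 and mt-Atp6 pointed the other way, at -1.33 ± 0.80 and -0.27 ± 0.13, and neither passed.

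The calls between the inhibitors depended on the GC correction and on single libraries. With the GC and length offset, none of the 4 passed. mt-Co1 was then at 0.21 (edgeR adjusted p = 0.155), mt-Nd1 at 0.15 (0.330), mt-Rnr1 at 0.06 (0.590) and mt-Rnr2 at 0.19 (0.0675). The 1 member called was the deposited row mt-Atp6, as lower. With the copies added as well, mt-Nd3 alone passed, as higher. Without BRD0705 library 3, the lowest in mitochondrial share, 0 members passed, with edgeR adjusted p of 0.122 for mt-Co1, 0.108 for mt-Nd1, 0.143 for mt-Rnr1 and 0.0521 for mt-Rnr2. Their values in that fit were 0.18, 0.17, 0.14 and 0.26. Without CHIR library 1 again 0 passed, with values of 0.28, 0.26, 0.19 and 0.21 in the same order and adjusted p of 0.107, 0.107, 0.114 and 0.0853. Without BRD0705 library 1, 8 members passed. Without Control library 3, mt-Rnr1 was lost (0.19; adjusted p = 0.0537), and without CHIR library 2, mt-Nd1 (0.0757) and mt-Rnr1 (0.126). mt-Rnr2 alone passed without Control library 2 or without CHIR library 3. The deposited row mt-Atp6 alone passed, as lower, without BRD0705 library 2. The part of base composition in these differences was not tested beyond these fits.

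The nuclear genes that transcribe, process and modify mitochondrial RNA were tested in the same fits. All 62 listed genes were tested. In BRD0705 against Control, 0 were higher and 2 lower by edgeR, where 0.690 and 0.534% of all rows tested were. Values of 44 of the 62 were negative, with a median of -0.05, as were 7832 of all 15366. In CHIR against Control, 2 were higher and 4 lower, where 2.52 and 3.78% of all rows were. Of the values 33 were positive and 29 negative, with a median of 0.01. CHIR against BRD0705 had 4 higher and 1 lower, where 2.97 and 4.80% of all rows were, and 41 of 62 values were positive, with a median of 0.05. With the GC and length offset the 3 comparisons had 0, 6 and 5 higher and 1, 2 and 1 lower, with medians of -0.03, 0.06 and 0.08. Polrmt, the mitochondrial RNA polymerase, had 53.9 ± 3.05 CPM in Control, 57.2 ± 4.30 in BRD0705 and 54.2 ± 2.84 in CHIR (SD, n = 3), and did not pass in any comparison. Lrpprc, which stabilises mitochondrial mRNAs, had 93.0 ± 3.38, 89.97 ± 4.88 and 91.3 ± 5.54 CPM and did not pass either. Its partner Slirp fell by 0.47 ± 0.07 on the log2 scale in BRD0705 (edgeR adjusted p = 0.00487) and by 0.24 ± 0.07 in CHIR (adjusted p = 0.0492).

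Among the factors of mitochondrial DNA, Tfam, which packages the genome and starts its transcription, had 52.0 ± 1.90 CPM in Control, 46.5 ± 1.94 in BRD0705 and 44.5 ± 0.246 in CHIR. It was lower in CHIR (-0.22 ± 0.06; edgeR adjusted p = 0.0262). Twnk, the helicase of mitochondrial DNA replication, was lower in CHIR than in Control (-0.34 ± 0.07; adjusted p = 0.00542) and than in BRD0705 (-0.34 ± 0.07; adjusted p = 0.00477). With 1 library left out in turn, both calls on Twnk passed in all 9 fits. Ssbp1, which coats single-stranded mitochondrial DNA, was lower in BRD0705 than in Control (-0.29 ± 0.07; edgeR adjusted p = 0.0368) and higher in CHIR than in BRD0705 (0.26 ± 0.07; adjusted p = 0.0231).

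Of the RNA processing and modification factors, Fastkd3, an RNA-binding regulator of mitochondrial mRNAs, was higher in CHIR than in Control (0.26 ± 0.07; edgeR adjusted p = 0.0328). Ptcd1, a pentatricopeptide protein of mitochondrial RNA metabolism, was lower (-0.24 ± 0.07; adjusted p = 0.0486). Alkbh1, which modifies mitochondrial tRNA, was higher in CHIR than in Control (0.25 ± 0.07; adjusted p = 0.0358) and than in BRD0705 (0.35 ± 0.07; adjusted p = 0.00400). CHIR also exceeded BRD0705 in the transcription factor Tfb2m (0.26 ± 0.07; edgeR adjusted p = 0.0381) and in Trmt10c, a subunit of mitochondrial RNase P (0.26 ± 0.07; adjusted p = 0.0285). With 1 library left out, the calls on Ptcd1 and on Slirp in CHIR each passed in 1 fit of 9. Of the 14 other settings, Slirp in CHIR passed in 2 and Ptcd1 in 4, with adjusted p of 0.0777 and 0.0932 in DESeq2 and 0.111 and 0.104 with the offset. With 1 library left out, Tfam, Fastkd3 and Alkbh1 in CHIR against Control passed in 4 fits each and Ssbp1 in BRD0705 in 3. Between the inhibitors Tfb2m passed in 3 of those 9 fits, and Trmt10c and Ssbp1 in 5 each. Of the 14 other settings Tfb2m passed in 9, with an adjusted p of 0.0644 in DESeq2, and Trmt10c in 10.

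Of the nuclear genes for respiratory chain subunits, 88 rows, 85 were tested. Against Control, CHIR had 1 higher, the complex IV subunit Cox6b2 (0.36 ± 0.09; edgeR adjusted p = 0.0172), and 1 lower, Cox4i1 of the same complex (-0.24 ± 0.06; adjusted p = 0.0262), where 2.52 and 3.78% of all rows tested were. Of the values 30 were positive and 55 negative, with a median of -0.05. BRD0705 against Control had 0 higher and 6 lower, where 0.690 and 0.534% of all rows tested were, and 67 of 85 values were negative, with a median of -0.14. Among the 6 were Ndufb10 of complex I (-0.41 ± 0.07; edgeR adjusted p = 0.0103), Atp5j of complex V (-0.40 ± 0.06; 0.00525), and Cox7a2 (-0.35 ± 0.06; 0.00587) and Cox4i1 (-0.32 ± 0.06; 0.0177) of complex IV. CHIR against BRD0705 had 5 higher and 1 lower, where 2.97 and 4.80% of all rows were, and 65 of 85 values were positive, with a median of 0.08. With the GC and length offset BRD0705 against Control had 0 higher and 5 lower, CHIR against Control 1 and 0, and CHIR against BRD0705 9 and 1, with medians of -0.10, -0.01 and 0.09. When 1 library was left out, Cox6b2 and Cox4i1 in CHIR against Control passed in 6 and 5 of 9 fits. In BRD0705 against Control, Ndufb10 passed in 7, Atp5j and Cox7a2 in 8 each and Cox4i1 in 6. Of the 14 other settings, Cox4i1 in CHIR against Control passed in 11 and the other calls named here in all 14. Whether the mitochondrial and the nuclear subunits differed from each other in their response was not tested.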

How the data were processed

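The authors deposited whole-number read counts per gene symbol for 9 libraries, and a normalized table, a signal of counts scaled per library; per the submitters' processing notes RSEM, DESeq2 and mm10 were used, with no roles or versions. The aligner, annotation and strand setting are not given in the sources used here. Differences were tested on the counts in R 4.3.3 by edgeR 4.0.16 (TMM scaling, filterByExpr with a minimum count of 10, quasi-likelihood F test on 3 group means with all 9 libraries together), 2-sided, with Benjamini-Hochberg adjustment over all 15366 rows tested. Standard errors were derived from the F statistics. The deposited signal entered limma 3.58.1 alternatives on log2(value + 1) and log2(value + 0.1), and an alternative of the mitochondrial share. It did not enter the main fit. DESeq2 1.42.0 on the counts was a further alternative. The scripts were tested on simulated data.

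Every mt- row was a member. All 13 mRNAs and 2 rRNAs were named, with tRNAs by rule only if counted, and machinery genes if past the threshold, plus Polrmt, Tfam and Lrpprc; of the nuclear subunits, at most the 4 called genes with the smallest p per comparison. The members and lists were chosen with earlier results of these data known. Of the 52264 symbols, 49497 matched a GENCODE symbol directly and 1 by an older symbol listed in RefSeq. The mt- transcripts were aligned with blastn 2.17.0 to chromosome 1 of GRCm39 and to the transcripts of the other rows. The rest of the genome was not searched. Sequences and lengths came from GENCODE vM39. Rows on other chromosomes that matched were Gm13340, Gm13341 and Gm13339 (chromosome 2) and Gm4076 (chromosome 13). They held 0, 35, 0 and 0 counts over the 9 libraries and were not added. Gm10925 has no sequence in GENCODE vM39 and was paired with mt-Atp6 from RefSeq GRCm38.p6 without alignment. No GRCm38 genome was used. Replicates differed beyond sampling noise in every pair. Depth was 17359422 to 20773337 counts.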

Additional observations from a re-analysis of the deposited data

How the results depend on the processing

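Of 184 values of called members under alternatives, 0 changed sign, 138 kept their call and 46 lost it; a further 63 of all 1033 member values under alternatives changed sign with no call in either fit. Members called were 0, 4 and 4 (BRD0705 against Control, CHIR against Control, CHIR against BRD0705). With no low-count filter they were 4 (3 higher, 1 lower), 12 (10 higher, 2 lower) and 14 (11 higher, 3 lower). With library size alone the first was 1, and with only the 2 groups compared the others were 7 and 1. With the GC and length offset the first was 1 and the third 1. Nuclear copies added gave 7 for the third, and 1 with the offset too. Leaving out 1 library gave 0 to 1, 1 to 6 and 0 to 8. All rows called for BRD0705 were 188, against 477 with DESeq2, 609 with no filter, 114 with the offset, 119 with offset and copies, and 21 to 305 without 1 library. For CHIR against Control they were 968 (387 higher and 581 lower), against 1538 with the offset (1008 higher, 530 lower), 1551 with copies too, and 514 to 1070 without 1 library. For CHIR against BRD0705 they were 1194 (456 higher and 738 lower), 1459 with the offset (970 higher, 489 lower), and 616 to 1313 without 1 library. The difference in mitochondrial share between CHIR and Control, 0.328 percentage points, was 0.211 without mt-Co1 and 0.474 with copies. That between CHIR and BRD0705, 0.256, was 0.485 with copies and 0.161 without mt-Co1. It was 0.128 without BRD0705 library 3 and 0.387 without BRD0705 library 1. These percentage points refer to shares of different size. Group means of Control, BRD0705 and CHIR were 1.54, 1.61 and 1.86% as deposited and 2.58, 2.57 and 3.05% with copies. mt-Co1 held 28.1 to 32.2% of the counts on mt- rows. The shifts with copies or without mt-Co1 therefore do not show a larger or smaller relative difference. Values that changed sign and were called after copies were added were mt-Atp6 (0.32) and mt-Co3 (0.34) for CHIR against BRD0705, and, with the offset too, mt-Nd3 for CHIR against Control (0.24). The cause was not tested, except that leaving out a library also lowers the number of samples.

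Same-numbered libraries correlated at a mean of -0.00119 in their deviations, and 2 of 9 correlated best with their own number. The replicate numbers thus showed no pairing, and whether the cultures were paired cannot be told from these values. With the replicate block, members called were 2, 6 and 5; with block and offset 2, 7 and 2, and 112 and 1503 of all rows for BRD0705 and CHIR against Control. With block and copies 10 members were called for CHIR against BRD0705, among them mt-Atp6 (0.33), mt-Co3 (0.34) and mt-Nd4l (0.34), which had the opposite sign as deposited.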
